A study of Mus musculus with 2 samples.

Results

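Chromatin accessibility was examined at 9 genes that are known for megakaryocytes and platelets, Itga2b, Gp1ba, Gp6, Gp9, Pf4, Ppbp, Gata2, Gfi1b and Nfe2, out of 21938 protein-coding genes of the GENCODE M21 annotation of the mouse genome build GRCm38 (mm10). The genes were taken by name, and every deposited peak that touched the gene body or the 20 kb on either side of it was taken, with the distance of its summit to the gene 5′ end. Both libraries were scFFPE-ATAC, a single-cell assay that inserts adapters into accessible DNA with a Tn5 transposase adapted to the broken DNA of formalin-fixed paraffin-embedded (FFPE) tissue. They came from FFPE spleen of C57BL/6 J mice of 8 weeks, of which the study used both sexes. For 1 library the nuclei were prepared without gradient centrifugation, the step that otherwise removes debris. For the other, tagmentation was done in a 50 µL reaction system, smaller than the standard reaction, and the sources used here do not state whether its nuclei passed the gradient. Which mouse or mice gave each library is not stated either, and each condition had 1 library, so no difference between them has a replicate check and no test was made.

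Megakaryocytes are large polyploid cells that shed platelets, and in the mouse the spleen red pulp holds them beside erythroid precursors throughout life. Their surface carries the receptors that platelets use to stick to an injured vessel: glycoprotein VI, encoded by Gp6, binds collagen, the complex that includes the products of Gp1ba and Gp9 binds von Willebrand factor, and integrin αIIb, encoded by Itga2b, joins integrin β3 to bind fibrinogen. Pf4 and Ppbp encode chemokines stored in platelet granules. Gata2, Gfi1b and Nfe2 encode transcription factors of the blood lineages, and Nfe2 is needed for platelet release. Gata2 and Gfi1b also act in blood stem cells, Gata2 in mast cells, and Gfi1b and Nfe2 in erythroid cells.

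The library without gradient centrifugation had 25343 peaks that covered 8.81 Mb, and the 50 µL library had 89382 peaks that covered 38.0 Mb. The files hold neither reads nor cell numbers, so the sequencing depth behind each peak is unknown, and a lack of a peak means that none was called, not that the chromatin was closed. Peaks were called per library over all its cells, so fewer cells of a type and less accessible chromatin per cell cannot be told apart. Fold enrichment here is the reads at a summit over the local background that the peak caller estimated. Its median was 5.24 in the list without gradient and 3.29 in the 50 µL list, so folds were not compared between lists, and a peak was placed instead by its percentile within its own list by −log10 q. At the promoters of the cell type markers, a peak within 1 kb of an annotated transcription start site (TSS) was present for 2 of 5 B cell genes and 3 of 5 T cell genes without gradient, and for 5 of 5 and 4 of 5 in the 50 µL list. Genes of other tissues had 0 of 6 without gradient, and 1 of 6, Gfap, in the 50 µL list. Over all protein-coding genes the shares were 43.7% and 56.6%, and the marker counts are too small to be set apart from them.

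The DNA of 7 stretches under these peaks is shown first, since they are the sites on which the results turn. Each is reference sequence of GRCm38, read 5′ to 3′ on the strand of the gene. In the Gata2 intron (chr6:88203175-88203275, plus strand), capitals mark the E-box CATCTG and the word AGATAA of GATA factors, with the 8 bases between them. In the 150 bp before the 5′ end of Gfi1b (chr2:28621983-28622132, minus strand), capitals mark the word TGATAA of GATA factors. In the site beyond the 3′ end of Gfi1b (chr2:28592994-28593094, minus strand), capitals mark the core CCANNAGNNGGC of the CTCF motif, whose letters lie on the opposite strand. Upstream of Gp1ba (chr11:70629771-70629881, plus strand) and in an Itga2b coding exon near the 5′ end (chr11:102467300-102467410, minus strand), capitals mark the bases from the summit in one list to the summit in the other, both included. In an Itga2b coding exon near the 3′ end (chr11:102456217-102456327, minus strand), capitals mark the 7 CpG dinucleotides. Upstream of Gp6 (chr7:4410121-4410231, minus strand), capitals mark the GATA word on the opposite strand.
Gata2 intron: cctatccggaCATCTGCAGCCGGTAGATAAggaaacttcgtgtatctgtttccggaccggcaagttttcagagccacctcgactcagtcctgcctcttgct
Gfi1b upstream: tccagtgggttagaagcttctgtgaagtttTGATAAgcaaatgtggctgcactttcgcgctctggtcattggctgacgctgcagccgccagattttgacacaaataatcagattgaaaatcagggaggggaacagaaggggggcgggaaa
Gfi1b downstream: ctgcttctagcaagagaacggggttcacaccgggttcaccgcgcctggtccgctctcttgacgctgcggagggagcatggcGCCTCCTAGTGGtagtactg
Gp1ba upstream: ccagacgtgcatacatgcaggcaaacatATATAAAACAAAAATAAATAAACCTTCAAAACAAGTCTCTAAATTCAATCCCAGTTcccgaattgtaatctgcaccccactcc
Itga2b exon near the 5′ end: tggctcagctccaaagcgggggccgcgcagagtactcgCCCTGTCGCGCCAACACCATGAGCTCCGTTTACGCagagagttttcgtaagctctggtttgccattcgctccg
Itga2b exon near the 3′ end: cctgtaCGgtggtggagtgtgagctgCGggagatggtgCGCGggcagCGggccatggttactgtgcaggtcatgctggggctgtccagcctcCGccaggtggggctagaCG
Gp6 upstream: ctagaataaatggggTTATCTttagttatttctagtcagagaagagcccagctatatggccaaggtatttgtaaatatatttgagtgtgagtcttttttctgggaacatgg

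The peaks in the windows of the 9 genes lay at the receptor and transcription factor genes, and none lay at the chemokine genes. Without gradient centrifugation, 10 peaks lay in the windows, in 5 of 9 genes, whereas 66.3% of all protein-coding genes had at least 1 peak under the same rule. The 50 µL list had 39 peaks in the windows, in 7 of 9 genes, against 76.2% of all genes. Pf4 and Ppbp had none in either list, and Gp6 and Gata2 had none without gradient and 1 each in the 50 µL list. The most peaks without gradient were 3, at Gfi1b and at Nfe2, and the most in the 50 µL list were 9, at Gp1ba. The median number of peaks per window was 1 without gradient, as it was over all genes, and 6 in the 50 µL list, where it was 4 over all genes. Per 100 kb of window, the median was 2.33 peaks without gradient and 10.6 in the 50 µL list, against 1.95 and 6.59 over all genes.

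**Figure D1:**
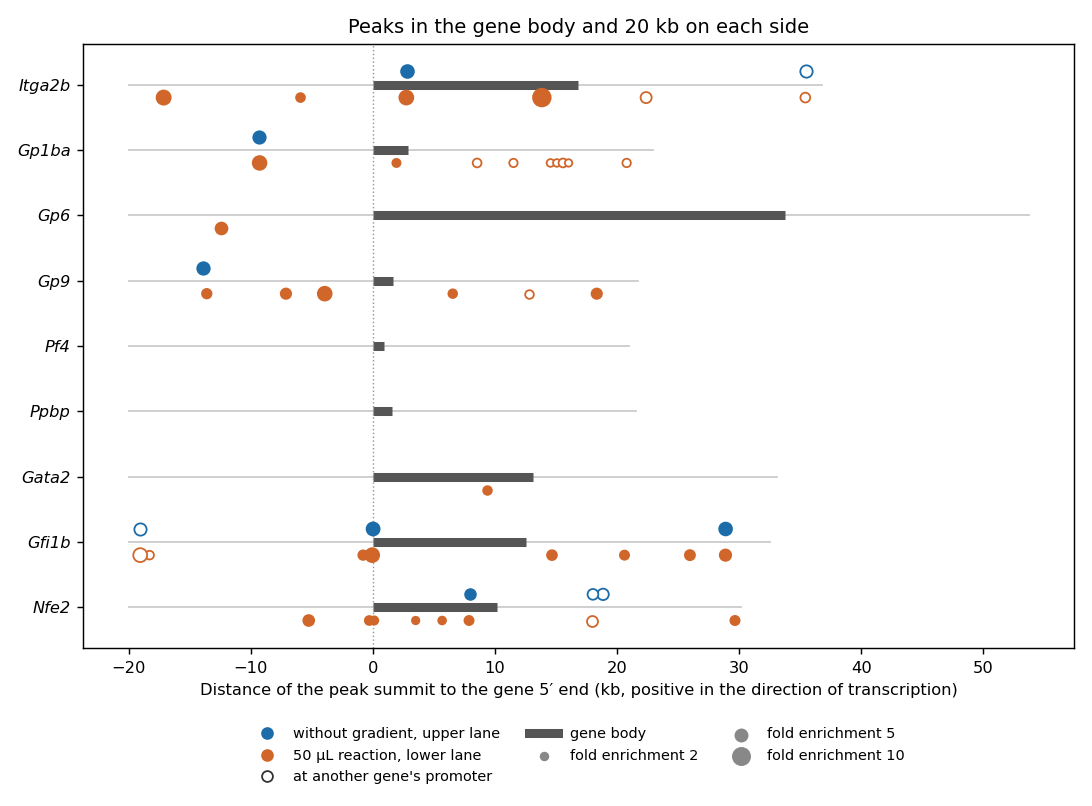
Distance of each peak summit to the 5′ end of the gene (kb, positive in the direction of transcription) for the 9 genes, with the list without gradient in the upper lane and the 50 µL list in the lower lane of each row, circle area by fold enrichment, open circles at promoters of other genes, the gene body as a dark bar and the window as a thin line. Gfi1b has a peak at its 5′ end in both lists, while the rows of Pf4 and Ppbp are empty.

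Part of these peaks lay at the promoters of neighbouring genes. Of the 10 peaks without gradient, 4 lay within 1 kb of a TSS of another protein-coding gene, and of the 39 in the 50 µL list, 13 did, which leaves 6 and 26 peaks away from such promoters. At Gp1ba the share was greatest, since 7 of its 9 peaks in the 50 µL list lay at promoters of the genes on its 3′ side, such as Pfn1, which encodes the actin-binding protein profilin, Rnf167, Slc25a11 and Eno3. Of the 15 other protein-coding genes with a TSS in the windows, 6 had a promoter peak without gradient and 11 in the 50 µL list. These calls took any TSS of the gene, so some of the peaks, as at Rab43 and Chrne without gradient, lay outside the windows. Over all protein-coding genes the shares were 43.7% and 56.6%.

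All 10 peaks without gradient overlapped a peak of the 50 µL list by at least 1 bp (100%, exact 95% interval 69.2 to 100, as for all intervals below for counting error only), against 95.3% of that whole list. In the other direction, 9 of 39 overlapped (23.1%, 11.1 to 39.3), against 26.3% of the whole 50 µL list. The 50 µL list is the longer one. With that list reduced to its 25343 most significant peaks, as many as the other list holds, its peaks in the windows came to 10, in the same 5 genes as without gradient: Itga2b, Gp1ba, Gp9, Gfi1b and Nfe2. Of these 10 peaks, 6 overlapped a peak without gradient (60.0%), near the 65.5% of the whole reduced list. In the other direction, 70.0% of the window peaks without gradient overlapped a peak of the reduced list, against 100% with the full list. In the reduced list 66.8% of all genes had a peak in the window.

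The counts of the 9 genes with a peak at their own start sites were too small to set them apart from all genes. A peak within 1 kb of any annotated TSS was found for 3 of 9 genes in both lists, Itga2b, Gfi1b and Nfe2 (33.3%, 7.49 to 70.1), an interval that holds the shares of all genes, 43.7% without gradient and 56.6% in the 50 µL list. At the gene 5′ end itself, 1 of 9 had a peak without gradient, Gfi1b, against 39.6% of all genes, and 2 of 9 in the 50 µL list, Gfi1b and Nfe2, against 51.9%. The median distance from the 5′ end to the nearest summit was 13.9 kb without gradient and 3.93 kb in the 50 µL list, against 7.82 kb and 0.898 kb over all genes.

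The sequence around most of these start sites was poor in CpG, which the choice of genes had not used. CpG-rich promoters belong mostly to genes that are active in many tissues, and CpG-poor promoters are frequent among genes of a single cell type. The ratio of observed to expected CpG within 500 bp of the 5′ end had a median of 0.231 in the 9 genes and of 0.552 over all genes. It was lowest at Gp6 with 0.0426, followed by Gp1ba with 0.0920, Gp9 with 0.124 and Ppbp with 0.125. Gata2 had the highest ratio, 0.767, and was the only one of the 9 above 0.5, while 46.4% of all genes lay below 0.5. Among the 10183 genes below 0.5, a threshold chosen after the values were seen, 10.1% had a peak at the 5′ end without gradient and 20.6% in the 50 µL list. Of the 8 CpG-poor genes among the 9, 1 had such a peak without gradient and 2 in the 50 µL list. Gata2 had none in either list, although among genes with a ratio of 0.7 to 0.8 the share with a peak was 69.2% without gradient and 80.9% in the 50 µL list.

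**Figure D2:**
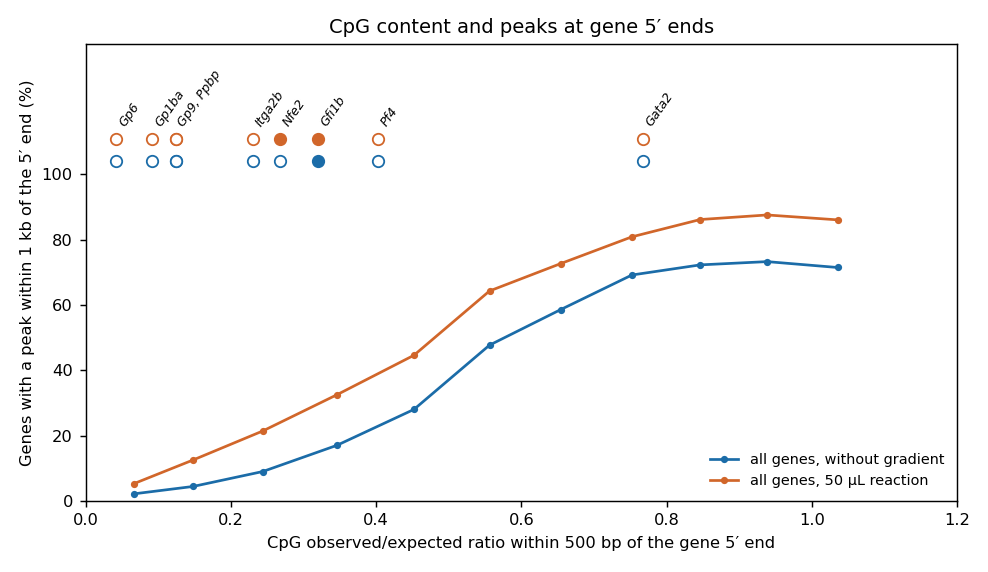
Share of protein-coding genes with a peak within 1 kb of the 5′ end (%) against the CpG observed/expected ratio within 500 bp of it, as lines for bins of all genes in each list, with the 9 genes above the lines at their own ratio, filled where the gene has such a peak. The share rises from 2.14% and 5.29% in the lowest bin to 73.3% and 87.6% between 0.9 and 1.0, and 8 of the 9 genes lie below 0.5.

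Itga2b (chr11:102453297-102470122, minus strand) held the strongest peak of all the windows. A peak of the 50 µL list with 10.6-fold enrichment (−log10 q of 79.0, percentile 99.5) had its summit 13850 bp from the 5′ end, in a coding exon, at chr11:102455862-102456474, on an internal annotated TSS. The 201 bp around its summit were 70.6% G and C. It had no counterpart without gradient. Of the 895 peaks above the 99th percentile of the 50 µL list, 834 overlapped a peak without gradient (93.2%, 91.3 to 94.7), so this peak was among the few strong peaks that did not. The peak shared by both lists lay nearer the 5′ end, again in a coding exon and on an internal annotated TSS: its summit was 2784 bp from the 5′ end without gradient (5.58-fold, percentile 35.4) and 2750 bp in the 50 µL list (6.60-fold, percentile 91.1), 34 bp apart. No peak came within 1 kb of the 5′ end, so the promoter call of Itga2b rests on these internal start sites. On the 5′ side, the 50 µL list had a peak of 6.79-fold 17125 bp upstream, in an intron of Gpatch8, and one of 2.66-fold 5916 bp upstream, in a UTR of the same gene. On the 3′ side, both lists had a peak in an exon of Grn, which encodes the growth factor progranulin. The Grn peak lay within 1 kb of an annotated TSS of that gene, with 5.18-fold without gradient and 3.26-fold in the 50 µL list. The promoter of Fam171a2 had a peak of 4.17-fold in the 50 µL list.

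**Figure D3:**
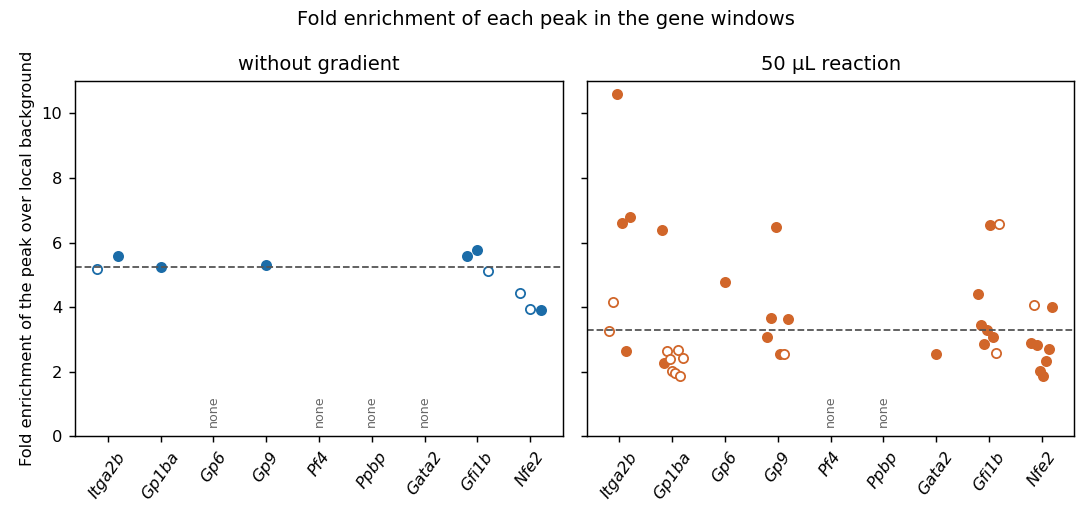
Fold enrichment over local background of each peak in the windows of the 9 genes, without gradient at left and in the 50 µL list at right, with peaks at promoters of other genes as open circles and the median of each whole list as a dashed line. The highest point is the Itga2b exon peak of 10.6-fold in the 50 µL list, and Pf4 and Ppbp show no point in either panel.

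The receptor genes Gp1ba, Gp9 and Gp6 had no peak within 1 kb of a TSS, and their strongest peaks lay upstream. At Gp1ba (chr11:70639122-70642036, plus strand), the α chain of glycoprotein Ib that touches von Willebrand factor, both lists had an intergenic peak about 9 kb before the gene. Its summit lay 9323 bp upstream without gradient, with 5.24-fold (percentile 26.1), and 9268 bp upstream in the 50 µL list, with 6.39-fold (percentile 94.5). The summits were 55 bp apart, in a stretch of 37.8% G and C with 2 CpG. Within the gene, the 50 µL list had a weak peak in the coding exon at 1941 bp, with 2.27-fold (percentile 2.54). None of the words searched, which are listed further below, was found around the upstream summit in either list.

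At Gp9 (chr6:87778072-87779768, plus strand), a small subunit of the same complex, the list without gradient had 1 peak, 13907 bp upstream with 5.32-fold (percentile 28.4). The 50 µL list had a peak there too, at 13592 bp with 3.07-fold, although the summits lay 315 bp apart. Repeat sequence made up 91.5% of the 201 bp around this summit in the 50 µL list and 40.3% around that without gradient. The strongest peak of the 50 µL list was nearer, 3932 bp upstream with 6.49-fold (percentile 89.6), and had no counterpart. The 201 bp around that summit were all repeat sequence in the reference, where short reads are harder to place; the part of this in the peak was not tested. Other peaks of the 50 µL list lay 7109 bp upstream (3.66-fold), 6553 bp downstream of the 5′ end (2.55-fold), 18347 bp downstream in an intron of Rab43 (3.64-fold) and at the Rab43 promoter (2.54-fold). At Gp6 (chr7:4363965-4397744, minus strand), the sole peak was that of the 50 µL list 12432 bp upstream, with 4.77-fold (percentile 65.9). Repeats made up 74.1% of the 201 bp around its summit, and their part in the peak was not tested. The same limit holds for other peaks of the 50 µL list. Repeats made up 62.2% at the Gp9 peak 18347 bp downstream, 67.7% at the Nfe2 peak 5243 bp upstream and 59.7% at the Gfi1b peak at 25978 bp. Without gradient the nearest summit to Gp6 was 29.8 kb away.

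The granule chemokine genes lay in a stretch without any called peak. Ppbp (chr5:90768518-90770063) and Pf4 (chr5:90772435-90773383) are neighbours on the plus strand, with 5′ ends 3917 bp apart, so their windows overlap and they are not independent observations. On the 5′ side, the nearest summit lay 26.2 kb before Ppbp in both lists. On the 3′ side, the next summit lay 137 kb after the 5′ end of Pf4 without gradient and 23.7 kb after it in the 50 µL list. The stretch without a peak was thus 167 kb long without gradient and held 7 protein-coding genes, Cxcl5, Ppbp, Pf4, Cxcl3, Cxcl15, Cxcl1 and Cxcl2, all of the same chemokine family. The stretch was 53.3 kb long in the 50 µL list and held the first 4 of them. Stretches this long were frequent: 34.2% of protein-coding genes without gradient and 33.1% in the 50 µL list had their 5′ end in a stretch without peaks of at least that length. The CpG ratio was 0.403 at Pf4 and 0.125 at Ppbp.

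Gata2 (chr6:88193891-88207032, plus strand), a zinc finger factor that binds GATA words, had no peak in its window without gradient, where the nearest summit was 87.7 kb upstream. The 50 µL list had 1 peak, in an intron of the gene at chr6:88203128-88203412, with its summit 9384 bp from the 5′ end. It was weak, with 2.55-fold and a −log10 q of 4.03, at percentile 2.07 of its list, and it ended 1033 bp from the nearest annotated TSS of Gata2. The sequence under it held the E-box followed by a GATA word 8 bases later that is shown above. Pairs of this form are bound by complexes of GATA factors with TAL1, and an intronic Gata2 element with such a pair is well known from blood stem and progenitor cells. Of the peaks in the 50 µL list, 9 of 89211 held this pair within 100 bp of the summit (0.0101%), and none of the 25343 without gradient did. Among 21931 protein-coding promoters of 300 bp, 2 held it. Since the known Gata2 element has this pair, a peak with its summit close to it was bound to hold the pair. The rarity of the pair therefore does not bear on the call of this weak peak. A wider region of 100 kb on each side of the 5′ end, chosen after the values were seen, held 1 peak without gradient, 87.7 kb upstream with 8.60-fold, and 5 in the 50 µL list, of which that at the same place had 5.27-fold and another 80.5 kb upstream had 4.25-fold. The remaining ones lay 99.6 kb upstream, at the promoter of Rpn1, and 99.6 kb downstream.

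Gfi1b (chr2:28609450-28621982, minus strand), a zinc finger repressor needed in megakaryocytes and erythroid cells, was the only one of the 9 genes with a peak at the 5′ end in both lists. Without gradient the summit lay 29 bp inside the gene, in the 5′ UTR, with 5.76-fold (percentile 40.2). For the 50 µL list it lay 43 bp before the gene, with 6.55-fold (−log10 q of 66.4, percentile 98.2), in a peak at chr2:28621554-28622420 that spans the start site. A further peak of the 50 µL list, 792 bp upstream, had 3.07-fold. The stretch before the gene holds the GATA word shown above. The word lay inside the peak of the 50 µL list but beyond the end of the peak without gradient.

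Regulatory elements of Gfi1b are known beyond its 3′ end, but the peaks were not compared with their positions. On that side, the 50 µL list had a row of 4 intergenic peaks at 14679, 20619, 25978 and 28888 bp from the 5′ end, with 3.30-, 2.87-, 3.46- and 4.42-fold enrichment. The farthest was also called without gradient, at 28900 bp with 5.58-fold, and the summits lay 12 bp apart. That site held a CTCF core, the middle of the motif of the factor CTCF that shapes chromatin loops, a word added to the search after the values were seen. The promoter of Tsc1, a growth control gene upstream of Gfi1b, had a peak in both lists, of 5.12-fold without gradient and of 6.58-fold (percentile 99.2) in the 50 µL list, with 1 more of 2.58-fold beside it.

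Nfe2 (chr15:103248212-103258403, minus strand), a basic leucine zipper factor, had the most peaks in the gene body, 4 in the 50 µL list, with folds below the median of that list. A pair of peaks flanked the 5′ end, 284 bp upstream with 2.70-fold and 115 bp inside with 2.33-fold, and neither was called without gradient. Inside the gene, peaks lay at 3515 bp with 1.88-fold (percentile 0.493), the lowest fold of all the windows together with a peak at Pfn1, at 5683 bp with 2.04-fold, in a UTR at an internal start site, and at 7886 bp with 2.84-fold (percentile 46.9). The last of these was also called without gradient, at 7942 bp with 3.91-fold (−log10 q of 4.59, percentile 4.82), 948 bp from an annotated TSS of Nfe2, which is why the gene counts as having a promoter peak there. Upstream, the 50 µL list had a peak of 4.01-fold (percentile 69.3) at 5243 bp, and on the 3′ side one of 2.89-fold at 29667 bp, in an intron of Cbx5. The most significant peaks in this window lay at the shared promoter of Cbx5 and Hnrnpa1, which encode a heterochromatin protein and an RNA-binding protein: 2 peaks without gradient, of 4.44- and 3.93-fold, and 1 of 4.08-fold (percentile 94.9) that spans the same place in the 50 µL list.

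Over all windows, the peaks were of ordinary strength for their lists. Their median fold was 5.21 without gradient, with a range from 3.91 to 5.76, and 2.89 in the 50 µL list, with a range from 1.88 to 10.6. The median percentile by −log10 q was 35.4 and 46.7. None of the 10 peaks without gradient and 7 of the 39 in the 50 µL list lay above the 90th percentile of their list. These 7 lay at Itga2b with 3, at Gp1ba upstream, at the Gfi1b 5′ end, and at the promoters of Tsc1 and of Cbx5 and Hnrnpa1. By place, 3 peaks without gradient lay in a gene body, 3 upstream and 4 downstream, and in the 50 µL list the counts were 8, 13 and 18.

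Words of factors that act in megakaryocytes were searched on both strands within 100 bp of each summit. They were AGATAA or TGATAA for GATA factors, GGAAGT for ETS factors such as FLI1, TGTGGT for RUNX1, TGAGTCA for AP-1 and NF-E2, and CAGATG or CATCTG for the E-box of TAL1, none of which contains another. Among the 26 peaks of the 50 µL list away from promoters of other genes, 6 held a GATA word (23.1%), against 16.6% of all peaks of the list. For ETS the count was 4 (15.4%, against 19.0%), for RUNX 5 (19.2%, against 18.5%), for the E-box 3 (11.5%, against 12.8%), and for AP-1 and NF-E2 it was 0, against 3.40%. A CTCF core was held by 2 (7.69%, against 5.15%). Among the 6 such peaks without gradient, the sole hit was 1 CTCF core (16.7%), at the site downstream of Gfi1b, against 12.6% of all peaks of that list. The exact 95% interval of each of these shares in the 50 µL list, for GATA from 8.97 to 43.6, held the share of the whole list. RefSeq promoters from 250 bp before to 50 bp after the start were matched for 8 of the 9 genes. The shares of all promoters were counted over the same length but at GENCODE 5′ ends, so the starts can differ. With so few genes and no interval computed, no excess is read from these counts. A GATA word was present in those of Gp1ba, Gp6, Pf4 and Gfi1b, and an ETS word in those of Itga2b, Gp6, Gp9, Pf4 and Ppbp, while 16.7% and 24.8% of all promoters held these words. A RUNX word was present in that of Gp9 and an E-box in that of Ppbp, beside 15.3% and 15.2% of all promoters, and none held an AP-1 and NF-E2 word, beside 4.59%.

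Markers of other cells that use the same transcription factors were counted beside these results. Of 6 erythroid genes, 2 had a promoter peak without gradient, among them Tfrc with 4.84-fold, and 4 in the 50 µL list, among them Tfrc with 4.01-fold, Epor with 6.49-fold and Slc4a1 with 5.01-fold. Klf1 and Alas2 had none in either list. Of 6 mast cell and basophil genes, none had a promoter peak without gradient and 1, Hdc with 3.59-fold, did in the 50 µL list, so that Kit, Fcer1a, Ms4a2, Cpa3 and Mcpt8 had none. Of 5 red pulp macrophage genes, 1 had a peak without gradient, Spic with 5.45-fold, and 4 in the 50 µL list. Over all protein-coding genes, 43.7% had a promoter peak without gradient and 56.6% in the 50 µL list, and these marker groups are small. The part of these cells in the peaks at Gata2, Gfi1b and Nfe2 was not tested.

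A list of 71 other genes of megakaryocytes and platelets gave the setting for the 9. Without gradient, 27 of 71 had a promoter peak (38.0%, 26.8 to 50.3), and in the 50 µL list 50 of 71 (70.4%, 58.4 to 80.7), beside 43.7% and 56.6% of all genes. At the gene 5′ end alone, 22 of 71 had a peak without gradient (31.0%) and 44 of 71 in the 50 µL list (62.0%), beside 39.6% and 51.9% of all genes. Both lists had a promoter peak for 26 genes, and 20 had none in either. By role the counts were small. Without gradient, the interval of the granule genes (0.211 to 38.5) lay below the share of all genes, and those of the other roles held it. In the 50 µL list, the intervals of transcription factors (59.5 to 98.3) and signalling genes (62.6 to 95.3) lay above it, and the others held it. The roles were not matched for CpG content, and its part was not tested. Many genes of the richer roles are used by other blood cells as well, so that their peaks cannot be assigned to megakaryocytes.

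Of the 20 surface receptors, 5 had a promoter peak without gradient and 12 in the 50 µL list. The 5 were Itga2, a collagen receptor chain, with 7.24-fold, Itga6 with 5.20-fold, the tetraspanin Cd9 with 4.67-fold, Itgb3, the partner of Itga2b, with 4.23-fold, and the thrombin receptor gene F2rl2 with 3.99-fold. F2rl2 was the sole gene of the whole list with a promoter peak without gradient and none in the 50 µL list. Its peak was weak, at percentile 2.84 of its list. In the 50 µL list the most significant were Cd9 with 5.98-fold, Itga6 with 5.02-fold and Itgb3 with 3.99-fold. Gp1bb and Gp5, the remaining chains of the von Willebrand factor receptor, had none in either list, as at Gp1ba and Gp9.

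Of the 12 granule and secreted proteins, 1 had a promoter peak without gradient, Tgfb1 with 3.71-fold, and 5 in the 50 µL list, where Tgfb1 had 3.35-fold, the proteoglycan gene Srgn 3.04-fold and Sparc 5.54-fold. Vwf, F5 and F13a1, which encode clotting proteins carried by platelets, had none in either list, as at Pf4 and Ppbp.

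Of the 15 transcription factors, 8 had a promoter peak without gradient and 13 in the 50 µL list. Zfpm1, a partner of GATA1, stood highest in both, with 8.37-fold (percentile 88.5) without gradient and 8.48-fold (percentile 99.7) in the 50 µL list. The others without gradient were Ikzf5 with 5.87-fold, Runx1 with 5.36-fold, Mafk, a small Maf partner of NF-E2, with 4.23-fold, Hhex with 3.78-fold, Lmo2 with 3.67-fold, Mef2c with 3.47-fold and Etv6 with 3.39-fold. Mafk with 5.33-fold and Ikzf5 with 5.29-fold followed Zfpm1 in the 50 µL list. There, Gata1 had a peak of 3.40-fold near an annotated TSS but none at its 5′ end. The same held for Lmo2 and Mef2c without gradient.

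Of the 24 genes of signalling, cytoskeleton and granule formation, 13 had a promoter peak without gradient and 20 in the 50 µL list. Without gradient the folds ran from 6.80 at Nbeal2, a gene needed for α-granules, and 6.42 at Rgs18 through 5.96 at Vps33b, 5.45 at Stxbp2, 5.39 at the myosin gene Myh9 and 4.39 at Pik3cg to 4.23 at Fermt3, 4.22 at Gnaq and 4.16 at Lyn, and to 3.80 at Vamp8, 3.69 at Plek, 3.45 at Tbxas1 and 3.38 at Rap1b. In the 50 µL list the most significant were Fermt3, encoding the integrin activator kindlin-3, with 5.01-fold, Vamp8 with 4.57-fold and Plek with 3.49-fold. Tubb1, the platelet β-tubulin, had no promoter peak in either list.

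**Figure D4:**
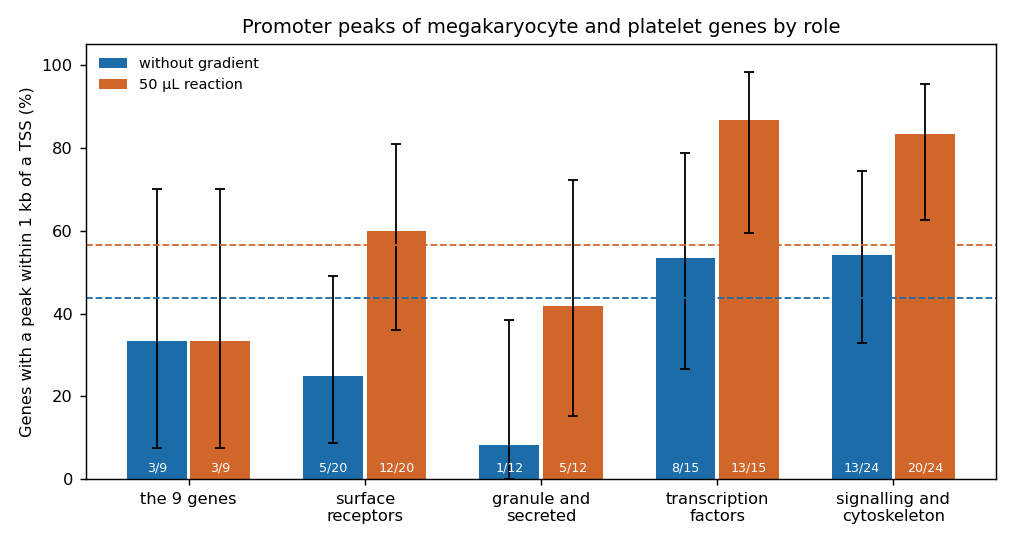
Share of genes with a peak within 1 kb of an annotated TSS (%) for the 9 genes and for 4 roles of 71 other megakaryocyte and platelet genes, as bars for each list with exact 95% intervals for counting error, the counts in the bars and dashed lines for all protein-coding genes. Among the 4 roles, granule genes are lowest, with 1 of 12 and 5 of 12, and transcription factors and signalling genes are highest in the 50 µL list, with 13 of 15 and 20 of 24.

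Among the 71 other genes, those whose peak numbers were nearest to those of Gfi1b, which had 3 peaks without gradient and 8 in the 50 µL list, were F2rl2, Stxbp2 and Vps33b, each with the same 3 and 8, as Nfe2 among the 9 genes and the macrophage marker Hmox1 also had. These numbers count the windows of 20 kb on each side and, as at Gfi1b, include peaks at promoters of neighbours.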

How the data were processed

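The authors aligned the reads of each scFFPE-ATAC library to mm10 with BWA 0.7.17 (mem, seed length 17), sorted them with samtools 1.17, removed duplicates, called peaks per library with MACS2 2.1.2 (no model, shift 0, q of 0.01) and removed blacklisted regions with bedtools 2.30.0. The deposited lists give each peak a fold enrichment (a ratio to local background), a −log10 p and −log10 q, a display score that was not used, and a summit. How many cells or reads stood behind a list is not given in the sources used here. The 9 genes and the other lists were chosen with earlier results of these data known.

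Peaks with at least 1 bp in the gene body plus 20 kb on each side were counted with Python 3.11.15, pandas 2.3.3 and SciPy 1.17.1, beside all protein-coding genes of GENCODE M21. A promoter peak came within 1 kb of an annotated TSS. The text names all 9 genes, every peak in a gene body or up to 5 kb upstream, and the 3 most significant of the other peaks per list and window. Named after their values were seen were the Itga2b peak in the Gpatch8 UTR, the peaks at Slc25a11 and Eno3, those of Gp9 at 6553 bp and at Rab43, those of Gfi1b at 14679 and 20619 bp and the weaker one at Tsc1, the wider Gata2 region, the marker genes, and the Gp1bb, Gp5, Vwf, F5, F13a1, Gata1 and Tubb1 values. From the list of 71, the text names each gene with a promoter peak without gradient and the 3 most significant per role in the 50 µL list. Shares have exact (Clopper-Pearson) 95% intervals. Single values of some listed genes are not reported here. With 1 library per condition no test was made. Counting and word search were tested on simulated peaks and planted words.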

Additional observations from a re-analysis of the deposited data

How the results depend on the processing

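Of 82 values under 11 alternative settings, 58 stayed within the limits set for them, a factor of 1.5 for a count or density and the 95% interval for a share, and 24 moved. With flanks of 5 kb, the windows held 3 peaks without gradient, in 3 genes, of which 3 were away from promoters of other genes, at a median density of 0 per 100 kb. In the 50 µL list they held 15, of which 14 were away from such promoters. With flanks of 50 kb, the counts were 30 peaks in 8 genes without gradient, of which 15 were away from other promoters, and 77 and 47 in the 50 µL list. With folds of at least 4, the 50 µL list kept 12 peaks, 9 of them away from other promoters, at a median density of 2.33, of which 50.0% overlapped a peak of the other list, and promoter peaks for 20 of 71 genes. Reduced to the length of the shorter list, it kept 10 peaks, 7 of them away from other promoters, at a density of 1.99, of which 60.0% overlapped (65.5% of the whole reduced list), and promoter peaks for 31 of 71 genes (45.2% of all genes had one). Under a reciprocal overlap of 50%, 60.0% of the peaks without gradient were shared. Their share was 75.0% with folds of at least 4 and 70.0% against the reduced 50 µL list, both within the wide interval of the main value. With the gene 5′ end alone, 1 gene had a promoter peak without gradient, and within 2 kb of any TSS 5 genes had one in the 50 µL list. A −log10 q above 5, a promoter distance of 500 bp, the summit rule and other genes of every biotype moved none of the results they were applied to beyond the limits. Within the limits, the genes with a promoter peak without gradient fell from 3 to 2 under each of the first of these, a −log10 q above 5 and 500 bp. The reduced 50 µL list also had 2. Nfe2 was the gene lost in each case. No paired analysis was possible because each condition had 1 library.

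The limits are the unknown depth, the difference in list length, the lower library quality that the study reports without the gradient, and the lack of replicates. Folds of the 2 lists are not on a common scale, and a gene without a called peak is not shown to have closed chromatin. No group had enough samples for a check of single samples that stand apart.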
